A study of Mus musculus with 3 samples.

Results

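Cxcl12 and Kitl, the genes of the main secreted niche factors of bone marrow (BM), were followed through endothelial, stromal and cartilage cells of fetal and adult mouse BM. They were chosen by symbol, as 2 of the 125 targets of a custom panel that had a molecule in the data. Both were detected in each of the 3 libraries. Kitl was read by a pair of amplicons that counted nearly the same molecules, with a Pearson correlation across cells of 0.987 to 0.991, so the higher of the pair was taken in every cell.

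Cxcl12 encodes a chemokine that binds the receptor Cxcr4 on haematopoietic stem and progenitor cells and holds them in the marrow. Kitl encodes stem cell factor, the ligand of the receptor tyrosine kinase Kit, which these cells need for survival and self-renewal. In adult BM both factors are known to come from endothelial cells (ECs) and from perivascular reticular cells that carry the leptin receptor, Lepr. In fetal BM, which stem cells enter late in gestation, the sources are less well described, and the comparison here addresses which cells held the transcripts at each stage.

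Cxcl12 lies on the forward strand of chromosome 6 in the mouse genome build GRCm38 (chr6:117168535-117181367), and Kitl on the forward strand of chromosome 10 (chr10:100015630-100100416). Each gene is spliced into several coding transcripts, and the deposited tables name each amplicon for 1 of them. The 3 coding transcripts of Cxcl12 share 267 coding bases and part at the end of the reading frame, which is shown here because the levels below cannot be assigned to a single isoform. Each stretch runs 5′ to 3′ from 15 bases before the point where the transcripts part, with the bases that a transcript does not share with Cxcl12-202 in capitals. It ends at the last sense codon of Cxcl12-202 and Cxcl12-203, while of the 90 bases that Cxcl12-201 does not share the first 15 are shown. The amplicon was named for Cxcl12-203, which ends within 1 base of Cxcl12-201 at the 3′ side, while Cxcl12-202 ends at position 117175069.
Cxcl12-201: aaagctttaaacaagGGGCGCAGAGAAGAA
Cxcl12-202: aaagctttaaacaag
Cxcl12-203: aaagctttaaacaagAGGCTCAAGATG
Kitl is made in a form that is readily cut from the cell surface and a form that largely stays on it, and the coding exon that separates them is shown for the same reason. It is exon 6 of Kitl-202, at chr10:100080857-100080940 on the forward strand. It is 84 bases long and absent from Kitl-201. It lies 19476 genomic bases before the 3′ end of Kitl-202, the side from which the assay reads, and the counts do not tell the forms apart.
Kitl exon 6: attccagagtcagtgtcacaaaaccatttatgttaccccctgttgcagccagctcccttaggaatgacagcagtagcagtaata

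All samples came from wildtype C57/B6 mice with no treatment, and each group was a single library made from several pooled animals. The library E18.5 EC was made of fetal ECs obtained by sorting, on CD31 according to the methods of the study and on CD31 with endomucin according to the description of the series. The library E18.5 Bone marrow cells, called fetal BM here and E18.5 BM in the plots, came from other embryos of the same stage, and the library Adult Bone marrow cells, called adult BM, from mice whose age the labels do not give. Both were depleted of mature haematopoietic cells with lineage antibodies before capture. With 1 library per group no test across samples was possible, and every interval below is an exact 95% interval of counting error only. Differences of stage cannot be told apart from those of library, preparation or depth.

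After removal of cells with few molecules, E18.5 EC retained 4038 cells, fetal BM 12843 and adult BM 7939, with a median of 82, 97 and 239 molecules per cell. Levels are given as molecules of a gene per 10000 molecules of the panel in the same cells. Cells were grouped with targets other than Cxcl12, Kitl, Ptn, Wnt signalling and the cell cycle, and a group is called by the targets that led it. The sorted library held 3030 endothelial-like cells, but a further 983 carried Ptprc, the gene of the haematopoietic surface protein CD45, against the label. These Ptprc cells, taken as a type that makes little of either factor, served as the comparison for free RNA. The libraries shared between 38 and 113 cell barcodes in each pair, at most 1.44% of the smaller library.

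The background from free RNA was low in fetal marrow and high for Cxcl12 in the adult. Cxcl12 in Ptprc cells stood at 2.36 per 10000 (1.65 to 3.27) in E18.5 EC, at 1.28 (1.09 to 1.50) in fetal BM and at 73.0 (69.2 to 76.9) in adult BM. Kitl in the same cells stood at 3.02 (2.21 to 4.02), 0.931 (0.767 to 1.12) and 4.43 (3.53 to 5.48). In the adult library 31.0% of Ptprc cells, at a median depth of 90 molecules, had a Cxcl12 molecule, against 4.03% with Kitl. Of the 1384 Cxcl12 molecules in adult Ptprc cells, 471 lay in 2 cells, which were kept in the level of 73.0. An adult cell group at or below 73.0 for Cxcl12 is read here as background per panel molecule. Ptprc cells are shallow, so for cell groups of great depth the comparison is also given per cell.

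**Figure D1:**
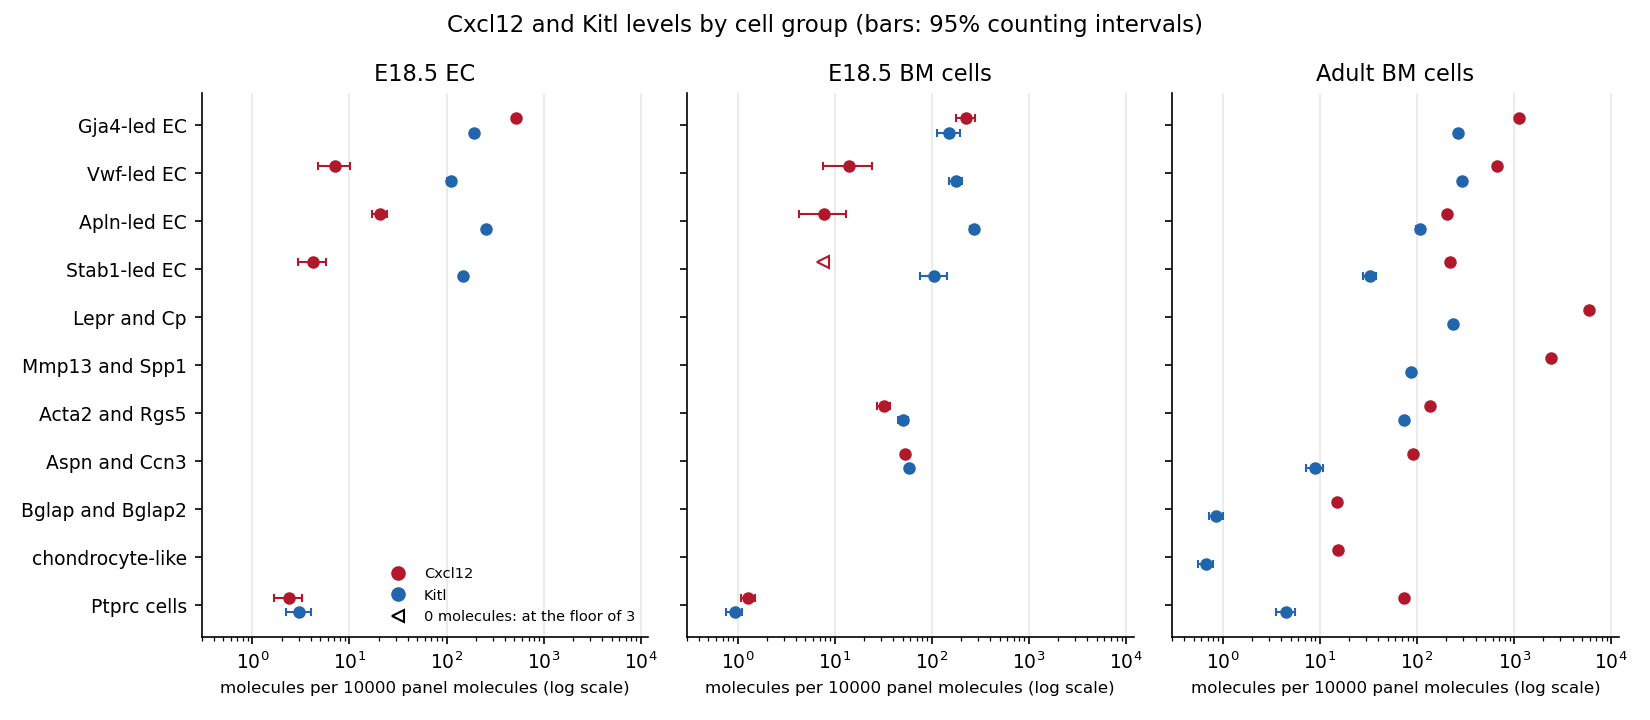
Levels of Cxcl12 and Kitl in molecules per 10000 panel molecules, on a log axis, for cell groups of the 3 libraries. Bars are 95% intervals of counting error and open symbols mark groups with no molecule, drawn at the level of 3 counts. Cxcl12 reached 5885 in the adult subclusters led by Lepr and Cp and stood at 525 in the Gja4-led ECs of E18.5 EC, while Kitl stayed between 32.6 and 288 in the endothelial subsets shown.

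ECs were divided by which of 4 genes was most enriched over the other ECs. Gja4 encodes connexin 37, a gap junction protein of arterial ECs. Stab1 encodes stabilin-1, a scavenger receptor of sinusoidal ECs, Vwf encodes von Willebrand factor, a clotting protein, and Apln encodes the peptide apelin, known from growing capillaries. At E18.5 Cxcl12 was concentrated in Gja4-led ECs, while Kitl was spread over all subsets.

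In E18.5 EC the 274 Gja4-led cells held 1959 Cxcl12 molecules, 82.0% of those in the whole library. Their Cxcl12 level was 525 per 10000 (502 to 549), and 60.9% of them had a molecule (54.9% to 66.8%). This was 36.4 times (32.4 to 41.0) the level of the other ECs and 223 times that of Ptprc cells. The first ratio became 16.8 with RSEC molecules, which pass fewer error corrections, and 59.2 per cell. Expression was uneven among them, with a median of 1 molecule, an upper quartile of 6 and a maximum of 140, and the top 10% of cells held 62.7% of their Cxcl12. The other subsets stood far lower. Apln-led ECs, 596 cells, had a Cxcl12 level of 20.4 (16.9 to 24.4). A subset of 481 cells led by Ccn3 and Cdh13, in which none of the 4 genes was enriched, had 38.1 (32.2 to 44.9). Vwf-led ECs, 496 cells, had 7.05 (4.72 to 10.1), and the 1183 Stab1-led cells had 4.20 (2.99 to 5.74), intervals that overlapped. The level of Stab1-led ECs was 1.78 times (1.10 to 2.88) that of Ptprc cells but 0.900 times per cell, so sinusoidal Cxcl12 at this stage was close to background, with a molecule in 2.20% of cells.

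Kitl did not follow the arterial pattern. Gja4-led ECs of E18.5 EC had a Kitl level of 192 per 10000 (178 to 206), 0.993 times (0.916 to 1.07) that of the other ECs. The highest Kitl levels were 293 (276 to 311) in the Ccn3 and Cdh13-led subset and 256 (243 to 269) in Apln-led ECs. Vwf-led ECs stood lowest at 112 (102 to 123), below Stab1-led ECs at 149 (141 to 157). This last order depended on the grouping, since Vwf-led cells had 1.50 times the Kitl level of Stab1-led cells when ECs were defined by marker molecules in each cell and 1.43 times with 20 principal components. Every endothelial subset stood at least 37.1 times above the Ptprc cells for Kitl.

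The same division was seen among the 406 endothelial-like cells of fetal BM, at lower precision. The 37 Gja4-led cells had a Cxcl12 level of 224 (179 to 278), 23.7 times (15.7 to 36.7) that of the other ECs, and 43.2% had a molecule. Vwf-led ECs, 111 cells, stood at 14.1 (7.53 to 24.2) and Apln-led ECs, 182 cells, at 7.78 (4.25 to 13.0), the opposite order to E18.5 EC but with overlapping intervals. No Cxcl12 molecule was found in 50 Stab1-led cells, and 3 counts there would give a level of 7.57, so sinusoidal Cxcl12 was not detectable at this depth. For Kitl the Apln-led cells were highest at 270 (246 to 295), followed by Vwf-led at 176 (150 to 206), Gja4-led at 150 (113 to 194) and Stab1-led at 106 (76.4 to 143). The intervals of the last 3 overlapped between neighbours. A further 26 endothelial-like cells of no subset, 92.3% of which had Ptprc, stood at 15.9 for Cxcl12 and 122 for Kitl. Between both fetal libraries, Gja4-led ECs differed 2.34-fold in Cxcl12 (1.88 to 2.95), with the sorted library higher, while Kitl of all ECs differed by less than counting error (ratio 0.942, 0.874 to 1.02).

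Cxcl12 and Gja4 coincided in single fetal ECs as well as in subsets. Cells with a Gja4 molecule held 92.0% of all endothelial Cxcl12 molecules in E18.5 EC and 80.3% in fetal BM. The same cells held 22.1% and 15.9% of endothelial Kitl. Outside the Gja4-led subset of E18.5 EC, 31.4% of cells with Cxcl12 had Gja4, against 6.83% of cells without Cxcl12. Gja4 was among the targets used for grouping, but Cxcl12 and Kitl were not.

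In adult ECs Cxcl12 was found in every subset and was again highest in Gja4-led cells. The 321 Gja4-led cells had a Cxcl12 level of 1129 per 10000 (1103 to 1156), with a molecule in 97.5% of cells and quartiles of 8, 16 and 28 molecules. Vwf-led ECs, 371 cells, followed at 671 (647 to 696), with a molecule in 87.6% of cells. Stab1-led ECs, 433 cells, stood at 220 (207 to 234) and Apln-led ECs, 462 cells, at 201 (190 to 213), intervals that overlapped. Gja4-led ECs thus had 3.30 times (3.18 to 3.42) the Cxcl12 level of the other 3 named subsets together, against the ratio of 36.4 to the other ECs in E18.5 EC. Their ratio to Stab1-led ECs was 5.13 (4.81 to 5.47), but 0.787 with ECs and subsets defined by marker molecules in each cell and 0.375 at a finer clustering that left 629 endothelial-like cells, so the adult order rests on the grouping. Of all 18199 adult endothelial Cxcl12 molecules, 58.8% lay in cells with a Gja4 molecule. That total includes 6179 molecules of the 28 cells described next, so the share is not directly comparable with the fetal ones. A further 28 endothelial-like cells, with Spp1 and Lepr among their leading targets and in none of the 4 subsets, had a Cxcl12 level of 4199 and a Lepr level of 84.9, both near those of the Lepr and Cp-led stromal cells described below. Whether they are ECs, doublets or another cell was not tested. They are left out of comparisons between named subsets, but count among the other ECs where an adult subset is set against all other ECs.

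Kitl in adult ECs was high in the Vwf-led and Gja4-led subsets and low in Stab1-led cells. Vwf-led ECs stood at 288 per 10000 (272 to 304) and Gja4-led ECs at 262 (249 to 275), with overlapping intervals. Apln-led ECs stood at 106 (97.8 to 115) and Stab1-led ECs at 32.6 (27.8 to 38.1). Stab1-led ECs were thus 7.36 times above the Ptprc cells of their library for Kitl, and 24.7% of them had a molecule. The Vwf-led group joined a subcluster of 225 cells, with 769 for Cxcl12 and 338 for Kitl, and one of 146 cells, with 558 and 230.

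**Figure D2:**
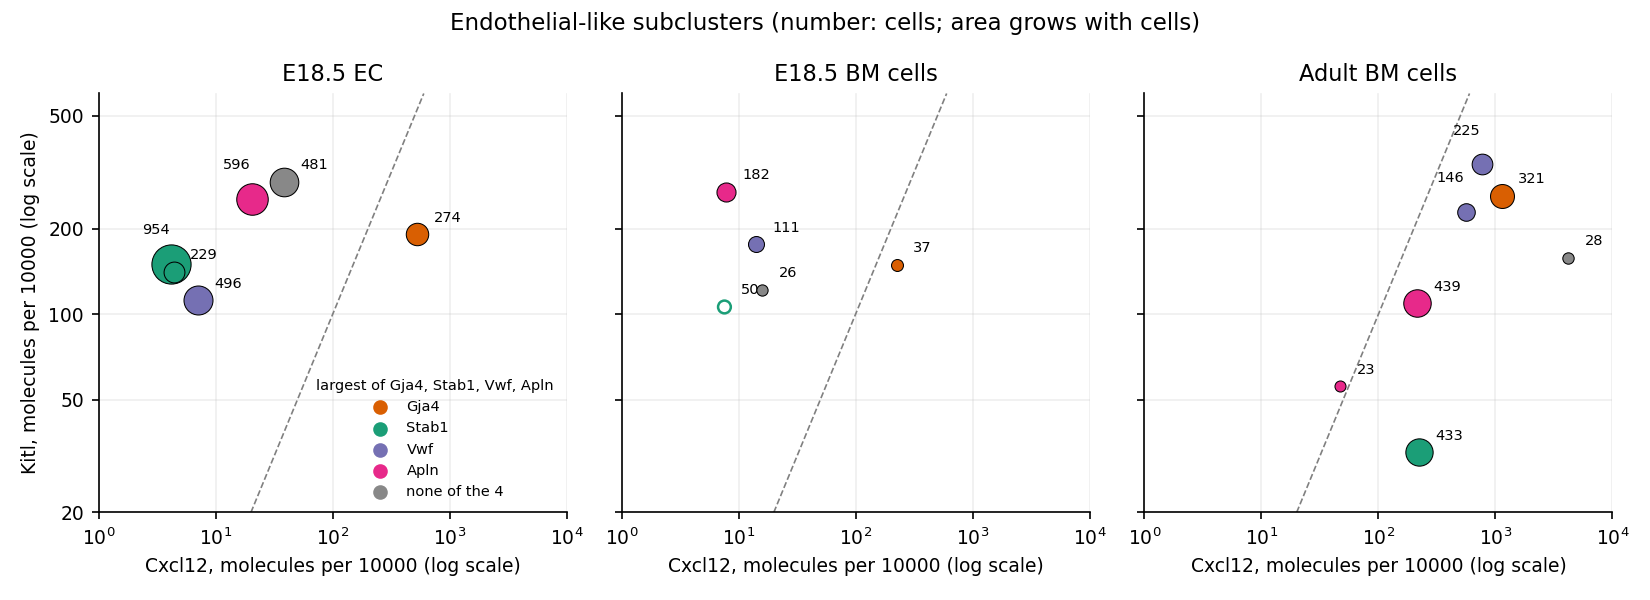
Kitl level against Cxcl12 level of each endothelial subcluster, both in molecules per 10000 panel molecules on log axes, by library and by the gene that marks the subset. The number beside a point is its cells, area grows with that number, open symbols are subclusters with no Cxcl12 molecule, and the dashed line marks equal levels. The Gja4-led subclusters lie farthest right among the 4 subsets in each library, at 525, 224 and 1129 for Cxcl12, and the Stab1-led adult cells lie lowest, at 32.6 for Kitl.

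Transcripts of Lepr and Cp, markers of the reticular cells, were present in adult ECs along with Cxcl12. For each Lepr molecule, Lepr and Cp-led stromal cells held 63.8 Cxcl12 molecules, Ptprc cells 81.4, Stab1-led ECs 45.0, Apln-led ECs 52.3, Vwf-led ECs 79.7 and Gja4-led ECs 1384. For each Cp molecule the values were 108, 86.5, 83.1, 164, 62.3 and 461 in the same order. The order of the subsets thus depended on the marker, except that Gja4-led ECs were highest with both. ECs can also hold Lepr without Cxcl12, since Stab1-led ECs of E18.5 EC had a Lepr level of 22.6. Leaving out the 21 Stab1-led cells with a Lepr or Cp molecule lowered their Cxcl12 level from 220 to 128 (117 to 138), still above the 73.0 of Ptprc cells. The same step left Gja4-led ECs at 1120, Vwf-led ECs at 694 and Apln-led ECs at 200 for Cxcl12. The part of free reticular RNA in the adult Stab1-led and Apln-led levels was not tested.

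Fetal stroma held modest amounts of both factors. The mesenchymal-like cells of fetal BM fell into 1164 cells led by Aspn and Ccn3, genes of matrix-producing fibroblastic cells, and 173 cells led by Acta2 and Rgs5, genes of contractile mural cells. The first had a Cxcl12 level of 53.3 per 10000 (50.7 to 56.0) with a molecule in 46.4% of cells, and a Kitl level of 57.8 (55.1 to 60.6). The second stood at 31.9 (27.5 to 36.7) for Cxcl12 and 50.4 (44.9 to 56.4) for Kitl. Fetal ECs thus had a Kitl level 3.62 times (3.33 to 3.93) that of fetal stroma in the same library, while their Cxcl12 level was 0.609 times the stromal one (0.5005 to 0.734). Per cell these ratios were 1.29 for Kitl and 0.216 for Cxcl12, at a median depth of 82.5 molecules in ECs against 236 in stroma. Because stromal cells were deeper and more numerous, they still held 66.6% of all Cxcl12 molecules and 67.3% of all Kitl molecules of that library.

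Within fetal stroma the factors had different peaks. Among 9 subclusters, Cxcl12 was highest in 121 cells led by Prg4, the gene of the joint lubricant lubricin, at 117 (103 to 132), and was 80.5 (75.0 to 86.3) in 390 cells with the cartilage genes Col2a1 and Acan among their leading targets. It was lowest, at 20.03, in 143 cells led by the osteocalcin genes Bglap2 and Bglap, whose Kitl level of 83.3 was above most others. Kitl was highest in 65 cells led by Lepr and Hey1, at 114 (97.5 to 132). That was 2.11 times (1.79 to 2.46) the level of the other mesenchymal-like cells, while their Cxcl12 level was 0.823 times (0.629 to 1.06). A subcluster of 113 cells with Ptprc in 92.0% stood at 49.7 for Cxcl12 and 37.8 for Kitl.

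In adult stroma the 2449 cells of the subclusters led by Lepr and Cp, the gene of the copper protein ceruloplasmin, held most of the library's transcripts of both factors. They had 595076 Cxcl12 molecules, 87.2% of the library, and 23859 Kitl molecules, 75.7% of the library. Their Cxcl12 level was 5885 per 10000 (5870 to 5900), with a mean of 243 molecules per cell and quartiles of 153, 220 and 311. In the median cell Cxcl12 made up 60.3% of all panel molecules. Kitl stood at 236 (233 to 239), with 9.74 molecules per cell and a molecule in 97.2% of cells. The 3 subclusters behind these values ranged between 5683 and 6447 for Cxcl12 and between 223 and 258 for Kitl. The highest of them, with 456 cells, was led by Ptprc and Srgn ahead of Lepr, with a Ptprc molecule in 5.04% of its cells.

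Because Cxcl12 takes up so much of these cells, the scale decides how their Kitl compares with arterial ECs. Per 10000 panel molecules the Lepr and Cp-led cells had 0.902 times (0.857 to 0.949) the Kitl level of adult Gja4-led ECs, but per 10000 molecules of the other targets 2.001 times, and per cell 1.95 times. For Cxcl12 they were higher on each of these scales, 5.21 times per panel molecule, 11.6 times per molecule of other targets and 11.3 times per cell.

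The remaining adult stroma formed a descending series. The 380 cells led by Mmp13 and Spp1, genes of osteogenic cells, outside the Lepr and Cp-led subclusters had a Cxcl12 level of 2375 (2355 to 2395) and a Kitl level of 86.8 (83.1 to 90.6), with a wide spread, the quartiles of Cxcl12 being 6, 101.5 and 233 molecules. Acta2 and Rgs5-led mural cells, 306 in number, stood at 136 (130 to 142) for Cxcl12 and 73.2 (69.1 to 77.5) for Kitl. Pecam1 was found in 64.4% of them, at a level of 198, against 4.62% and 5.48 in fetal mural cells. How much of either factor there came from endothelial RNA or mixed cells was not tested. Aspn and Ccn3-led cells, 310 in number, stood at 89.8 (84.4 to 95.4) for Cxcl12, 1.23 times (1.13 to 1.33) the level of Ptprc cells, and at 8.83 (7.21 to 10.7) for Kitl. One cell held 464 of their 1047 Cxcl12 molecules, and without it their Cxcl12 level was 50.5 (46.5 to 54.8), 0.693 times that of Ptprc cells. The Ptprc cells were not trimmed likewise, although 2 of them held 471 of their 1384 Cxcl12 molecules, so this ratio does not place the group below background. Bglap and Bglap2-led osteoblastic cells, 313 in number, stood at 14.97 for Cxcl12 and 0.853 for Kitl, both below the levels of Ptprc cells. With a median depth of 5547 molecules against 90, they nonetheless had 10.9 times the Cxcl12 and 10.2 times the Kitl molecules of Ptprc cells per cell.

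Adult cartilage cells had low levels of both factors. The 435 adult chondrocyte-like cells, with a median depth of 3958 molecules, stood at 15.4 (14.9 to 16.0) for Cxcl12 and 0.667 (0.555 to 0.796) for Kitl. These levels were 0.211 and 0.151 times those of Ptprc cells, but per cell the chondrocyte-like cells had 8.26 times the Cxcl12 and 5.89 times the Kitl molecules, so the scale decides on which side of Ptprc cells they lie. A Cxcl12 molecule was found in 46.9% of chondrocyte-like cells, but in 4.37% once each cell was thinned to 50 molecules, against 19.0% of Ptprc cells thinned likewise. No cluster of a fetal library met the rule for chondrocyte-like cells in the clustering used here. This depended on the scaling, since clustering on log molecules per 10000 gave 567 chondrocyte-like cells in fetal BM. The fetal mesenchymal-like subcluster with Col2a1 and Acan among its leading targets is described above. Among unnamed clusters the nearest was 1 of 168 cells in fetal BM, led by Col10a1, the collagen of hypertrophic cartilage. It stood at 36.7 for Cxcl12 and 4.40 for Kitl. Of its 616 Cxcl12 molecules 466 lay in 6 cells, without which its levels were 9.003 (7.62 to 10.6) for Cxcl12 and 2.94 (2.18 to 3.89) for Kitl. Both stood above the 1.28 and 0.931 of Ptprc cells in that library, with and without these cells.

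In each cell group compared, Cxcl12 was higher in the adult library than in the fetal ones, although for Aspn and Ccn3-led cells this did not hold on every scale or without 1 cell (below), and Kitl went either way. Among endothelial-like cells, Cxcl12 was 26.7 times (22.3 to 32.4) higher in adult BM than in fetal BM, and 18.9 times (15.8 to 22.9) higher without the 28 cells of no subset. Against E18.5 EC, which held more ECs, the ratio was 9.47 (9.06 to 9.89), or 6.69 without the 28 cells. Kitl was 0.832 times (0.771 to 0.899) the fetal level, but 1.22 times per cell. Of 86 targets with enough molecules in these cells, 45.3% were at least 2-fold higher in the adult and 22.1% at least 2-fold lower, and Cxcl12 ranked 5 from the top while Kitl ranked 56. Ptprc cells of the adult library were themselves 56.8 times higher in Cxcl12 and 4.76 times higher in Kitl than those of fetal BM.

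Among the endothelial subsets the ratio was smallest in Gja4-led cells, where fetal Cxcl12 was already high. Against E18.5 EC, Cxcl12 in the adult was 2.15 times (2.04 to 2.26) higher in Gja4-led ECs, 9.86 times (8.17 to 12.0) in Apln-led, 52.5 times (38.1 to 74.2) in Stab1-led and 95.2 times (66.1 to 142) in Vwf-led ECs. Against fetal BM the ratios were 5.03 for Gja4-led, 25.9 for Apln-led and 47.5 for Vwf-led ECs, and at least 29.1-fold for Stab1-led ECs, with the 0 molecules of the fetal group set to 3 counts over the group. Among 67 targets tested in Gja4-led ECs against E18.5 EC, 25.4% were at least 2-fold higher in the adult and 28.4% at least 2-fold lower, so a 2.15-fold difference was not exceptional for the panel. Kitl was higher in adult Gja4-led ECs (1.36 times, 1.25 to 1.49) and Vwf-led ECs (2.57 times, 2.31 to 2.87), and lower in Apln-led (0.415 times, 0.377 to 0.456) and Stab1-led ECs (0.220 times, 0.185 to 0.259). The ratios against fetal BM pointed the same way, at 1.75, 1.63, 0.393 and 0.308. When subsets were defined by marker molecules in each cell, Kitl in adult Gja4 cells was 0.706 times and in Vwf cells 0.473 times the level in E18.5 EC, so the direction of both rests on the grouping. The lower Kitl of adult Stab1-led ECs turned to 1.70 times the level in E18.5 EC at the finer clustering that left 629 adult endothelial-like cells.

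**Figure D3:**
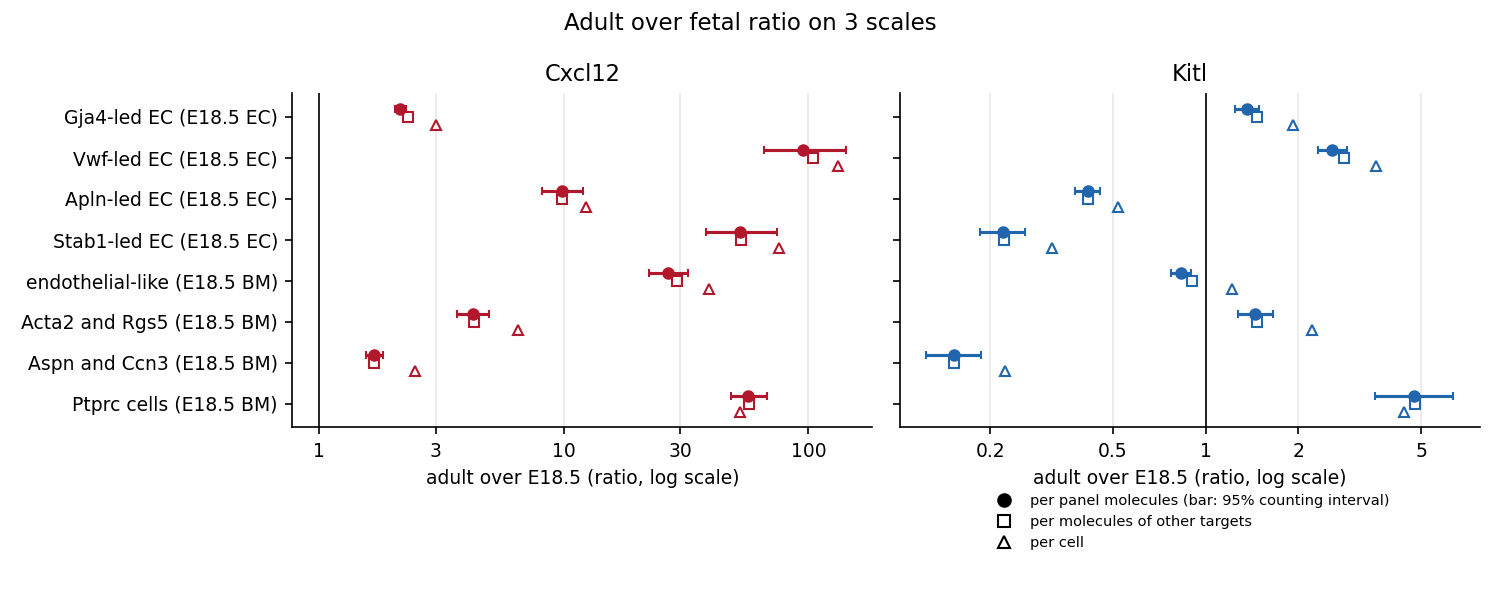
Ratio of adult to fetal levels for Cxcl12 and Kitl in matched cell groups, on a log axis, with 95% intervals of counting error, given per panel molecule, per molecule of other targets and per cell. The fetal library of each comparison is in brackets, intervals belong to the first scale and the line at 1 marks equal levels. Cxcl12 lies to the right of 1 in the groups shown, from 1.68 in Aspn and Ccn3-led cells upward (0.948 there without 1 cell and 0.323 after subtraction of the Ptprc level), while Kitl lies at 0.153 in those cells and at 2.57 in Vwf-led ECs against E18.5 EC.

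In stroma, mural cells led by Acta2 and Rgs5 had 4.27 times (3.68 to 4.97) more Cxcl12 in the adult and 1.45 times (1.28 to 1.65) more Kitl. Of 82 targets in these cells 32.9% were at least 2-fold higher and 45.1% at least 2-fold lower, and Cxcl12 ranked 16 from the top. Defined by marker molecules in each cell, mural Kitl was 0.459 times the fetal level. The groups also differed in Pecam1, found in 64.4% of adult and 4.62% of fetal mural cells. The subtraction of Ptprc levels given next used all adult Ptprc cells, including 2 with 471 of their 1384 Cxcl12 molecules. Aspn and Ccn3-led cells had 1.68 times (1.56 to 1.82) more Cxcl12, a ratio of 0.948 (0.861 to 1.04) without the single adult cell with most Cxcl12, 0.905 without the 3 most abundant targets in the denominator, 0.971 as a mean over cells and 0.323 once the level of Ptprc cells was subtracted in each library. Their Kitl was 0.153 times (0.124 to 0.187) the fetal level, one of the lower ratios in these cells, ranking 89 of 101 targets, of which 27.7% were at least 2-fold higher and 36.6% at least 2-fold lower. No fetal subcluster was led by both Lepr and Cp. Against the fetal subcluster with the most Lepr, the adult Lepr and Cp-led cells had 143 times (112 to 186) the Cxcl12 level and 2.07 times (1.79 to 2.42) the Kitl level.

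Joint detection of both factors in single cells followed these levels. In E18.5 EC, 51.8% of Gja4-led ECs had a molecule of each (45.7% to 57.9%), against 4.36% of Apln-led, 1.21% of Vwf-led and 0.930% of Stab1-led ECs. With each cell thinned to 50 molecules the share in Gja4-led ECs was 34.5% (28.4% to 40.9%), leaving out 36 shallower cells. The odds of Kitl were 3.97 times higher in Gja4-led cells with Cxcl12 than in those without, and 3.17 times within 3 bands of depth with equal numbers of cells. In fetal BM both were found in 29.7% of the 37 Gja4-led ECs (15.9% to 47.0%), where the odds ratio was 1.65, or 1.13 within such bands and 0.643 after thinning.

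In the adult, joint detection extended beyond the arterial subset. Both molecules were found in 91.9% of Gja4-led ECs, 77.4% of Vwf-led, 35.3% of Apln-led and 14.3% of Stab1-led ECs, and after thinning in 71.0%, 60.0%, 16.4% and 4.95%. Lepr and Cp-led cells had both in 97.2%, or 64.6% after thinning. None of the 2449 cells had Kitl without Cxcl12, but only 3 lacked Cxcl12, so this cannot inform on co-expression. The free RNA background of joint detection, in adult Ptprc cells, was 2.07%, or 0.856% after thinning. In fetal stroma the factors were close to independent in Aspn and Ccn3-led cells, with 240 cells holding both where 231 would follow from the separate shares. In fetal mural cells 53 cells held both where 40.2 would, an odds ratio of 3.57. The adult mural cells, 64.4% of which had Pecam1, had an odds ratio of 3.03 and both factors in 61.4% of cells. After thinning the odds ratio was 3.22 in fetal and 1.36 in adult mural cells, with both factors in 7.02% and 11.1%.

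Across cells, the graded relation between the factors differed widely between groups. The Spearman correlation of Cxcl12 and Kitl, each per molecule of other targets, was 0.820 over the 380 Mmp13 and Spp1-led adult cells and 0.538 over the Lepr and Cp-led cells. It was 0.482 in adult Vwf-led ECs, 0.343 in adult Gja4-led ECs and 0.368 in Gja4-led ECs of E18.5 EC. In fetal Aspn and Ccn3-led cells it was 0.0347, and in the adult ones 0.202. These are descriptions over cells of 1 library that share their depth as a denominator.

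**Figure D4:**
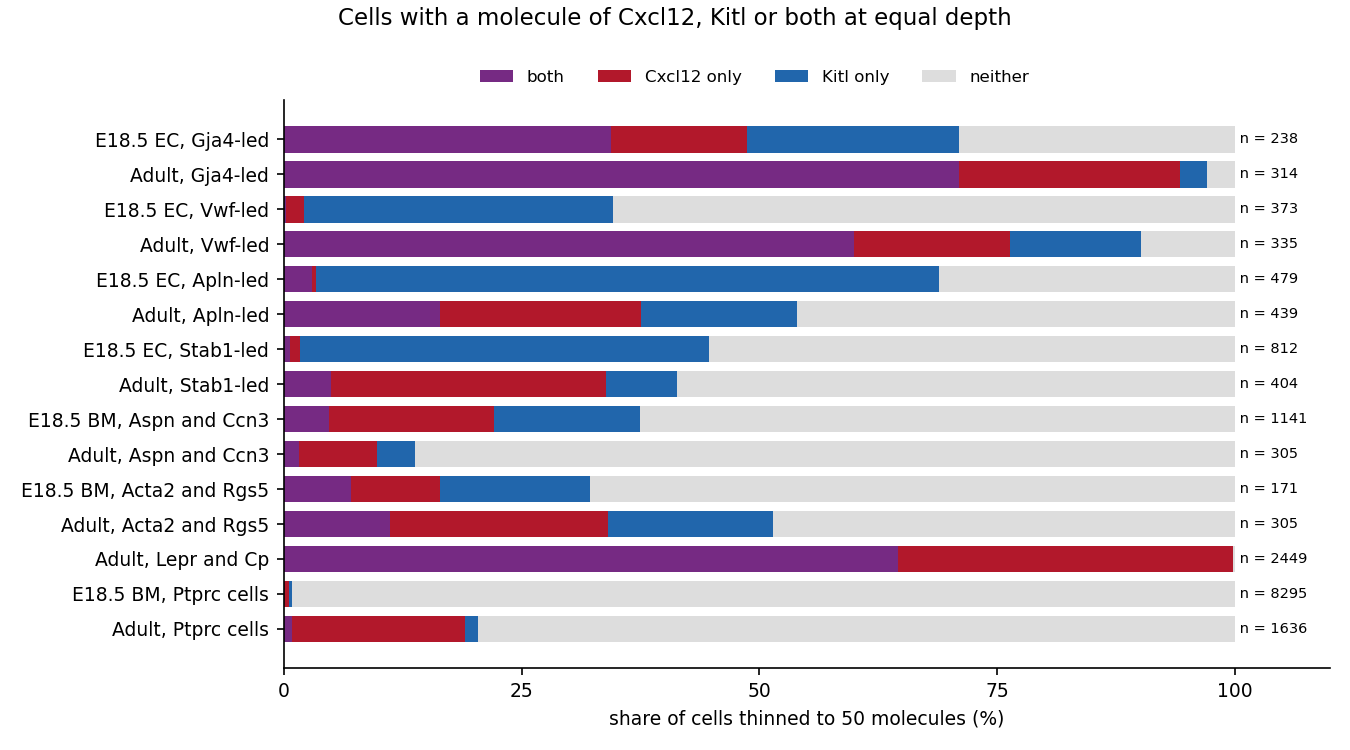
Percentage of cells with both factors, Cxcl12 alone, Kitl alone or neither once each cell is thinned to 50 molecules, in endothelial subsets, stromal groups and Ptprc cells, with the number of cells at the right. Cells with both make up 34.5% of Gja4-led ECs in E18.5 EC and 71.0% in the adult, and Kitl alone is the main class with a factor in the other fetal EC subsets.

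Of a list of 22 niche genes, 6 were seen in the panel besides both factors: Kit, Ptn, Lepr, Spp1, Adipoq and Cp. Kit, the receptor of Kitl, had at most 1 molecule in a library, so the cells that receive Kitl could not be placed. Adipoq, the gene of adiponectin and another reticular marker, had 1 molecule in the Lepr and Cp-led cells. Ptn, which encodes the niche factor pleiotrophin, had a stage pattern opposite to Cxcl12. It stood at 426 per 10000 (419 to 434) in fetal Aspn and Ccn3-led cells and at 7.12 (5.67 to 8.83) in the adult ones. In endothelial-like cells Ptn was 61.5 in E18.5 EC, 61.6 in fetal BM and 9.74 in the adult. Lepr, used with Cp to define the adult Lepr and Cp-led cells, stood at 92.2 in them, but fetal ECs had it too, at 16.3 in E18.5 EC. Cp, by contrast, had 4 molecules in those fetal ECs and a level of 54.6 in the adult reticular group. Spp1, which encodes the matrix protein osteopontin, stood at 514 in the adult Lepr and Cp-led cells and at 8.81 in fetal Aspn and Ccn3-led cells.

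Targets whose levels ran most like each factor over the clusters of a library were ranked by Spearman correlation, with no test. Over 10 clusters of E18.5 EC, Cxcl12 ran most like Mgp (0.879), Mmp13 (0.827) and Ptn (0.806), and Kitl most like the endothelial genes Cdh13 (0.976), Stc1 (0.952) and Igfbp7 (0.927). Over 20 clusters of fetal BM, Cxcl12 ran most like Kitl (0.686), and Kitl most like Cdh13 (0.759), Wnt11 (0.734) and Cxcl12 (0.686). Over 15 adult clusters, Cxcl12 ran most like Kitl and Lepr (0.971 for each) and Fbln5 (0.925), and Kitl most like Cxcl12 (0.971), Lepr (0.936) and Fbln5 (0.932). Each factor was thus the nearest target to the other in the adult, level with Lepr in the case of Cxcl12, while in E18.5 EC Kitl ranked 10 in likeness to Cxcl12 and Cxcl12 ranked 17 in likeness to Kitl. The clusters of a library share its depth and its background.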

How the data were processed

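Targeted single-cell RNA sequencing was done with BD Rhapsody. The deposited tables name the BD Targeted Rhapsody Analysis Pipeline 1.8 in their headers, and per the labels the genome build was mm10. Each deposited table lists read counts and molecule counts by cell and amplicon, the latter raw and after RSEC and DBEC error correction. DBEC-adjusted counts were used, with no normalization by the authors. DBEC kept 16.2%, 32.0% and 44.1% of raw Cxcl12 molecules in E18.5 EC, fetal BM and adult BM, and 27.8%, 45.9% and 38.6% of raw Kitl molecules. Over all targets it kept 21.2%, 41.6% and 35.9%. Cxcl12 was thus kept less than the panel in both fetal libraries and more in the adult, while Kitl was kept more in each. Ratios between libraries depend on this step, which raises the adult over fetal ratios of Cxcl12. Reads per DBEC molecule of Cxcl12 were 206, 56.1 and 12.1.

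Groups came from the sample labels. A cell needed 20 molecules and 5 targets, which removed 5, 41 and 9 cells. Libraries were clustered separately without Cxcl12, Kitl, Ptn, Wnt and cell cycle targets, on log counts scaled to the median cell, with 11 principal components (scikit-learn 1.9.0), 20 neighbours weighted by shared neighbours, and Leiden at resolution 0.5 (igraph 0.11.9, 10 iterations, seed 1). Other genes of the niche list, such as Lepr and Cp, were used. Classes required at least 3 markers, and mesenchymal-like and endothelial-like cells were subclustered likewise. An endothelial subset took the name of whichever of Gja4, Stab1, Vwf and Apln was most enriched. Ptprc cells are haematopoietic-like clusters and unnamed clusters with Ptprc in over 80% of cells. The files carried no cell type annotation, and names rebuilt here may differ from those of the study. Named genes were the members, the targets that define groups, a niche list and the 3 targets most like each member among those with at least 100 molecules in a library, of which some are not reported here. Members and lists were chosen with earlier results of these data known.

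No doublet caller was run, and alternatives left out cells with Ptprc or the deepest 5%. Level intervals are exact Poisson, share intervals exact binomial (Clopper-Pearson) and ratio intervals exact conditional binomial. They cover counting error and not differences between animals. The interval procedure was tested on simulated data. The panel-wide shares count targets with at least 20 molecules. Coding sequences and transcripts were read from GENCODE on GRCm38, the build of the labels. Python 3.11.15, numpy 2.4.6, pandas 2.3.3, scipy 1.17.1 and matplotlib 3.10.9 were used.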

Additional observations from a re-analysis of the deposited data

Results flagged for a closer look

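Several contrasts between endothelial subsets pointed in opposite directions in 1 or both fetal libraries and in adult BM. The difference between stages was not tested in any of them, since each stage and preparation was 1 library.

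Kitl in Vwf-led over Stab1-led ECs was 0.753 (0.676 to 0.838) in E18.5 EC and 8.83 (7.48 to 10.5) in adult BM, but 1.66 (1.18 to 2.39), the adult direction, in fetal BM. The E18.5 EC value was itself 1.50 with classes from marker molecules in each cell and 1.43 with 20 principal components. Kitl in Vwf-led over the other ECs was 0.539 in E18.5 EC, 0.825 in fetal BM and 2.02 in adult BM. Kitl in Apln-led over the other ECs was 1.46 in E18.5 EC, 1.82 in fetal BM and 0.552 in adult BM. Kitl in Gja4-led over the other ECs was 0.993 (0.916 to 1.07) in E18.5 EC, 0.710 (0.531 to 0.932) in fetal BM and 1.92 (upper bound 2.05) in adult BM. In these adult ratios the other ECs include the 28 cells of no subset. Cxcl12 in Apln-led over Stab1-led ECs was 4.86 (3.36 to 7.17) in E18.5 EC and 0.914 (0.841 to 0.994) in adult BM, while Stab1-led ECs of fetal BM had 0 Cxcl12 molecules. The adult direction rested on cells with a Lepr or Cp molecule. Without them Cxcl12 stood at 200 (188 to 212) in adult Apln-led and 128 (117 to 138) in adult Stab1-led ECs, the E18.5 EC direction.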

How the results depend on the processing

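The 61 results gave 814 values under the alternatives, of which 444 stayed within the counting interval of the reported value, 351 moved beyond it and 19 went the other way. Of 380 values for the 26 ratios whose interval left out 1, 361 kept their direction. No paired analysis was possible because each group was 1 library and no numbers tie samples together. The alternatives on the adult endothelial-like cells of no subset, on cells with Lepr or Cp, on the Aspn and Ccn3-led cell with most Cxcl12 and on the subtraction of Ptprc levels were chosen after seeing the data. The cause of the shifts was not tested. The Gja4-led subset of fetal BM rests on 37 cells.

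Values that went the other way were as follows. Kitl in adult Lepr and Cp-led over Gja4-led cells was 1.04 with raw molecules, 1.02 with classes from marker molecules in each cell, 2.03 without the 3 most abundant targets in the denominator and 1.95 per cell. Kitl in Vwf-led over Stab1-led ECs of E18.5 EC was 1.50 with marker classes and 1.43 with 20 principal components. Cxcl12 in adult Gja4-led over Stab1-led ECs was 0.787 with marker classes and 0.375 at Leiden resolution 1.0, which left 629 adult endothelial-like cells. For adult over E18.5 EC, Kitl in Gja4-led ECs was 0.706 with marker classes and 0.919 without the 3 most abundant targets, Kitl in Vwf-led ECs 0.473 with marker classes and Kitl in Stab1-led ECs 1.70 at resolution 1.0. For adult over fetal BM, endothelial Kitl was 1.12 at resolution 1.0 and 1.22 per cell, Kitl in Acta2 and Rgs5-led cells was 0.459 with marker classes, and Cxcl12 in Aspn and Ccn3-led cells was 0.905 without the 3 most abundant targets, 0.971 as a mean over cells, 0.948 without the adult cell with most Cxcl12 and 0.323 after subtraction of the Ptprc level.

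Other main values moved but kept their direction. The Cxcl12 ratio of Gja4-led over other ECs in E18.5 EC, 36.4, became 16.8 with RSEC molecules, 27.5 with raw molecules, 28.6 without the deepest 5% of cells, 59.2 per cell and 43.3 after Ptprc subtraction. The Cxcl12 ratio of adult Lepr and Cp-led over other mesenchymal-like cells, 21.8, became 13.6 with RSEC, 19.2 with raw molecules, 21.4 with Kitl amplicons summed, 22.0 without cells with Ptprc, 7.33 without the deepest cells, 24.8 with marker classes, 44.9 with 20 components, 103 at resolution 1.0, 24.0 with clustering on log molecules per 10000, 40.8 without the most abundant targets, 5.09 per cell, 5.63 as a mean over cells and 29.6 after Ptprc subtraction. The adult over fetal BM ratio of endothelial Cxcl12, 26.7, became 19.5 with raw molecules, 16.7 without the deepest cells, 16.8 with marker classes, 18.9 with 20 components, 46.0 at resolution 1.0, 39.1 per cell, 22.1 as a mean over cells, 9.47 with E18.5 EC as the fetal library, 18.9 without the 28 cells of no subset and 18.4 without cells with Lepr or Cp. The same ratio for Kitl, 0.832, became 0.655 with marker classes and 0.912 without the most abundant targets. The Cxcl12 level of Lepr and Cp-led cells, 5885, became 4837 with RSEC, 5078 with raw molecules, 5762 with Kitl summed, 5902 without cells with Ptprc, 3477 with marker classes, 5867 at resolution 1.0, 15874 without the most abundant targets, 5916 as a mean over cells and 5812 after Ptprc subtraction. The share of Gja4-led ECs of E18.5 EC with both factors, 51.8%, became 69.7% with RSEC or raw molecules, 34.3% with marker classes and 34.5% after thinning.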

Other observations

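A few fetal cells resembled the adult pattern in carrying Cxcl12 as at least 20% of their panel molecules. There were 18 such cells in E18.5 EC, 16 of them Gja4-led and all 18 with Pecam1. In fetal BM there were 7, against 2768 in adult BM, where 2429 were Lepr and Cp-led. Of the 7 fetal cells, 1 was a Gja4-led EC with 30 Cxcl12 molecules, and 6 lay in the Col10a1-led cluster with 67 to 97 Cxcl12 molecules each. These 6 cells held 17.4% of all Cxcl12 molecules of fetal BM. All 6 had Kitl and Mmp13, encoding a collagenase, 3 had Lepr, and none had Pecam1 or Ptprc. The barcode of 1 of the 6 also occurred in the adult library. They were singled out after their values were seen, and whether they are fetal cells or come from another source was not tested.

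In the adult the same threshold was passed by 41 Gja4-led and 24 Vwf-led ECs, of which 0 and 1 had a Lepr molecule, and by 5 Stab1-led ECs, all 5 with Lepr.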
